A study of Mus musculus with 12 samples.

Results

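The 10 genes described here belong to fibroblast growth factor (FGF) signalling through the kinase ERK, and were followed in 12 single mouse morulae, 1 embryo per array. They were the ligand gene Fgf4, the receptor genes Fgfr1 and Fgfr2, the small GTPase gene Rras2, the inhibitor genes Spry2, Spry4, Dusp4 and Dusp6, and the transcription factor genes Etv4 and Etv5. Members were taken by name, from all array probes whose transcript accession maps to 1 of these symbols in RefSeq. Of the 10 members, 9 had a probe, 18 probes in all, and Fgf4 was not analysed here. All 9 passed the filter on dim probes with at least 1 probe, 15 of the 18 probes were kept, and they stand among 19038 genes or unnamed probes tested, called features below.

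The embryos were (C57BL/6 x DBA/2) F1 in every group and were kept in KSOM medium until 72 h after activation. The first class was 4 embryos from in vitro fertilisation (IVF), 2 male (replicates 1 and 3) and 2 female (replicates 2 and 4), which received no injection. The other classes were male clones made from Sertoli cells, the supporting cells of the testis. Of these, 4 were injected at the 1-cell stage with a control siRNA (siCont) and 4 with an siRNA against Xist (siXist), the RNA that silences an X chromosome. A difference between a clone class and IVF therefore holds cloning, the donor cell and the injection together, and only siXist against siCont isolates the Xist siRNA. Each class was also hybridised on a slide and scan of its own, so slide and class cannot be told apart. The comparisons of siCont and of siXist with IVF share the same 4 IVF embryos.

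FGF ligands bind receptor tyrosine kinases together with heparan sulphate, and the signal passes through adaptors, Ras GTPases and the RAF, MEK and ERK kinases to transcription factors. Sprouty proteins and dual-specificity phosphatases dampen the cascade, and several of them, with the ETS factors Etv4 and Etv5, are transcribed in response to ERK, so that their RNA is widely used as a readout of the pathway. In the mouse embryo before implantation, FGF4 made by future epiblast cells acts through Fgfr1 and Fgfr2 to steer other inner cells to primitive endoderm.

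Levels are the log2 processed signal of a probe minus the 75th percentile of its array, so that 0 is that percentile and 1 unit is a change of 2-fold. They compare embryos for 1 probe and do not rank genes against each other. The 75th percentile signal ranged from 507 to 1133 over the arrays, and 50.7% to 61.4% of probes were well above background. The number of embryos, 4 per class, limits the precision. In single embryos, fewer cells that make an RNA and less of it per cell cannot be told apart. As a check of the labels, Xist read 4.56 to 5.65 in siCont and 1.36 to 2.45 in siXist clones, 5.17 to 5.24 in female IVF embryos and -7.04 to -4.92 in male ones. The siXist minus siCont difference of Xist, -3.04, did not pass the threshold (adjusted p = 0.110 in limma). A lack of calls in that comparison therefore does not show a lack of change. The tested morula markers were well above background on all 4 arrays of IVF and siXist (9 of 9 genes) and in 8 of 9 genes of siCont, where Cdx2 was measured above background in 3 of 4. Markers of cells that could be carried over were mixed. Of 7 Sertoli markers, Sox9, Dhh, Clu, Gata1 and Dmrt1 were above background on all IVF and siCont arrays, and Amh on 0 arrays of any class. On the 4 siXist arrays Sox9 was above background on 2 and Dmrt1 on 3. Wt1 was above background on 1 siXist array only. Of 8 cumulus markers, Amhr2, Foxl2 and Cyp19a1 were above background on all 12 arrays and Has2 on 1 siCont array. Tnfaip6 was above background on 0 IVF, 1 siCont and 2 siXist arrays, Ptgs2 on 0, 0 and 1, and Fshr on 1, 2 and 2. Ptx3, also a cumulus marker, was above background on 1 IVF, 4 siCont and 0 siXist arrays, and its siXist minus siCont difference was -4.26 (adjusted p = 0.134 in limma). Signals of the tested markers of a list were also summed and then taken to log2. For the 4 tested cumulus markers this gave 1.21 to 2.19 in IVF, 2.02 to 3.15 in siCont and 1.76 to 2.84 in siXist. Amhr2, with class means of 1.49, 2.24 and 2.09, was the brightest of the 4 and made up most of that sum. For the 5 tested Sertoli markers the log2 of the sum was 1.65 to 2.28, 1.22 to 2.55 and 0.99 to 2.36. For 3 tested markers of the 2-cell stage it was -0.36 to 1.07, -3.24 to 3.79 and -5.65 to -0.37, and for 3 stromal ones -3.80 to 0.74, -5.01 to -2.39 and -5.71 to -1.74. Limma called 0 of the 24 tested markers in each comparison, and their part in the results below was not tested.

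Rras2 fell in siXist clones relative to IVF embryos by 2.67 on the log2 scale. It was 1 of 9 measured members past the threshold of that comparison, against 0.578% of all features. Etv5, Etv4 and Spry2 also lay lower in every siXist clone than in every IVF embryo, but their differences did not pass the test. Lower without overlap in this comparison were 9.58% of all features, and the members were chosen with earlier results of these data known. No member passed in siCont against IVF, where 0.415% of features did, or in siXist against siCont, where 0.0105% did. Calls here and below are limma's test with an adjusted p under 0.05 (Benjamini-Hochberg over all 19038 features).

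Start-site sequences are shown for the members among these 4 with a RefSeq entry (GRCm38.p6). The 4 were grouped by lying below IVF without overlap on the brightest probe, and only Rras2 passed the test. Whether they change together was not tested. Each line gives the 250 bases before an annotated start, 5′ to 3′ on the gene's strand. Etv5 has a pair of annotated starts, and capitals mark a match to a searched motif.
Rras2, chr7:114117782-114118031, minus strand: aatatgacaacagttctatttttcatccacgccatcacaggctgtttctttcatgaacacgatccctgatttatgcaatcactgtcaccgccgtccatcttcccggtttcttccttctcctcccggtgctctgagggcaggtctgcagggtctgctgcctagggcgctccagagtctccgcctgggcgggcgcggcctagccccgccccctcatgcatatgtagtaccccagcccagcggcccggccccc
Etv5, chr16:22439571-22439820, minus strand: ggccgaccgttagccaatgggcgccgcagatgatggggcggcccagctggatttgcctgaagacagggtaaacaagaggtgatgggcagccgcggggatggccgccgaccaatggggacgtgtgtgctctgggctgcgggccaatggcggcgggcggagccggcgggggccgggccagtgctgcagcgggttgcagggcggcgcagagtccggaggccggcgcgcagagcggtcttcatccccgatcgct
Etv5, chr16:22438369-22438618, minus strand: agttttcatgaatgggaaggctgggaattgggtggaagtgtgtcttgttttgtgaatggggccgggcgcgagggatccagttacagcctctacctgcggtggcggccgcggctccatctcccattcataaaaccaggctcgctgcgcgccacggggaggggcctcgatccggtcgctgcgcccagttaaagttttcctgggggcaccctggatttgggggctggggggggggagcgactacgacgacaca
Spry2, chr14:105896820-105897069, minus strand: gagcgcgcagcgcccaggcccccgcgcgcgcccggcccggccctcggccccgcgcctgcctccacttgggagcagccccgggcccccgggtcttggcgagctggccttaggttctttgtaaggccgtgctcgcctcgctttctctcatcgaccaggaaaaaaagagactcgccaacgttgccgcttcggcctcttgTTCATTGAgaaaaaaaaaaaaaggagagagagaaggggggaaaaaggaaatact

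In all, 5 motifs were searched on both strands of these windows and of those of Fgf4, Fgfr2 and Dusp6, together 7 windows. No window of Fgfr1, Spry4, Dusp4 or Etv4 was among them. The only match was TCAATGAA, a form of the site of Capicua, a repressor that ERK inactivates. It lies on the other strand of the Spry2 window, at positions -54 to -47 before the start, and 0.642% of 32851 windows of all genes hold it. The other Capicua form TGAATGAA (1.08% of all windows), the ETS site CCGGAAGT (2.88%), the AP-1 site TGANTCA (6.75%) and the cyclic AMP response element TGACGTCA (1.55%) had 0 matches in the 7 windows. The Spry2 match overlapped no other motif. These letters describe the windows and say nothing of binding.

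**Figure D1:**
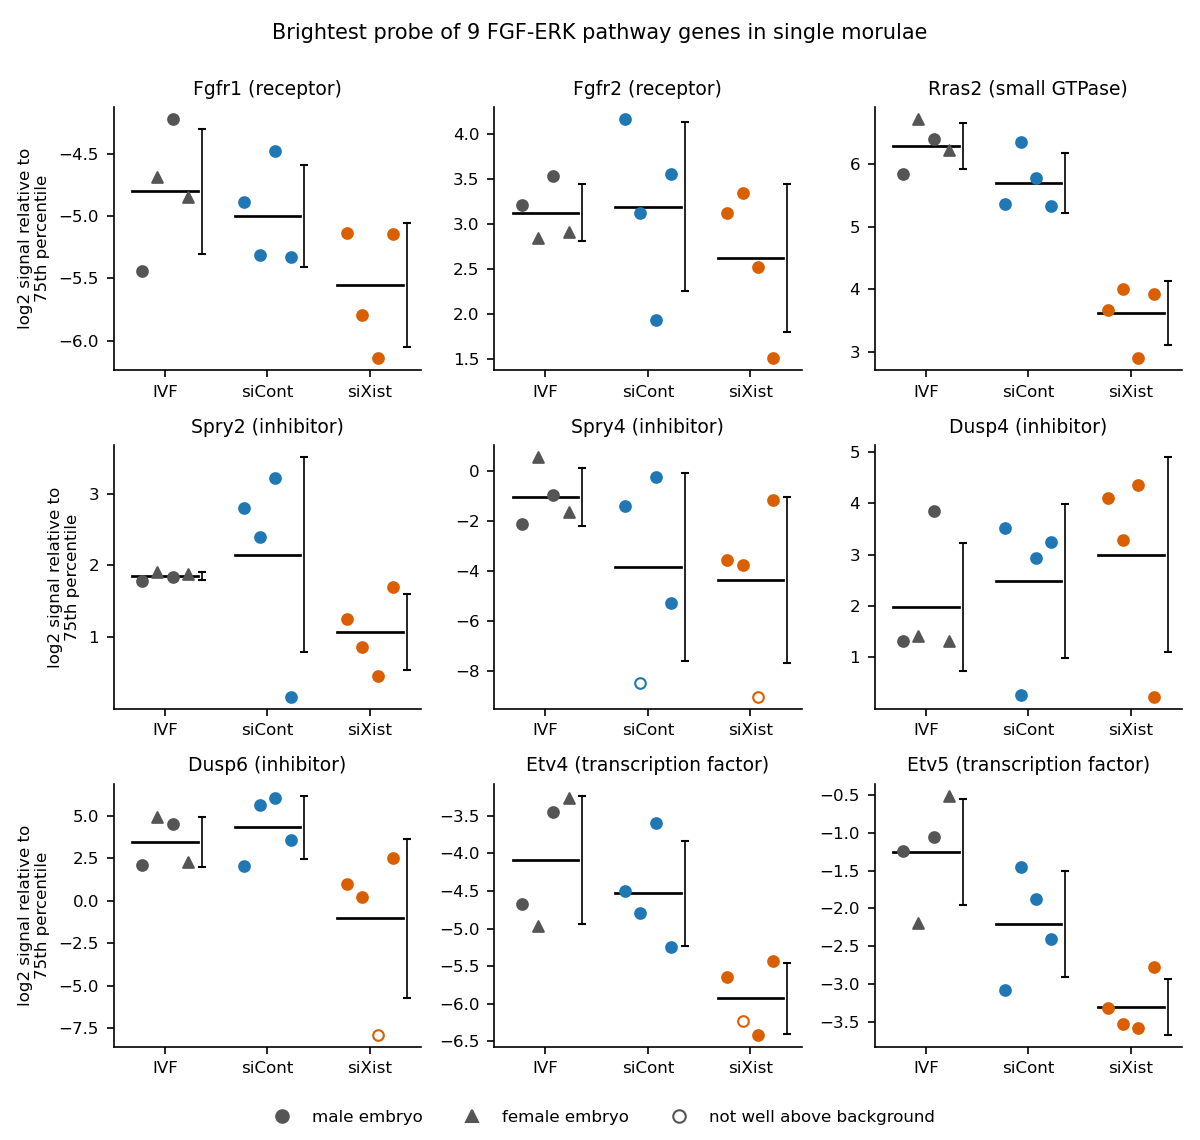
Level of the brightest kept probe of 9 members in each embryo, as log2 signal relative to the array's 75th percentile (vertical axis, a separate range for each gene), by class. Points are embryos (circles male, triangles female, open symbols not well above background), bars are means and whiskers 1 SD. All 4 siXist clones lie under the IVF embryos for Rras2, Spry2, Etv4 and Etv5, as they do for 9.58% of all features. For Dusp6, 1 siXist clone at -7.90 pulls the class mean down, and without it the difference from IVF is -2.22.

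Rras2 codes for a GTPase of the R-Ras group, also known as TC21, which can activate the same effectors as the classical Ras proteins. On its brightest probe (A_51_P112912) it read 5.84, 6.72, 6.40 and 6.22 in IVF embryos 1 to 4, 5.36, 6.35, 5.79 and 5.33 in siCont clones 1 to 4, and 3.67, 4.0, 2.90 and 3.93 in siXist clones 1 to 4. Every siXist clone was thus below every embryo of the other classes, while IVF and siCont overlapped. The means were 6.30 ± 0.37, 5.71 ± 0.48 and 3.62 ± 0.51 (SD, n = 4 each). Against IVF the siXist level was lower by 6.37-fold, with a log2 difference of -2.67 ± 0.37 (SE), a 95% interval of -3.50 to -1.84 and an adjusted p of 0.0192 in limma. Against siCont it was 4.23-fold lower, at -2.08 ± 0.37 (SE), and did not pass (adjusted p = 0.133 in limma). Between siCont and IVF the difference was -0.59, with an interval of -1.42 to 0.24.

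Among the settings that lost the Rras2 call against IVF were the authors' deposited value table (adjusted p = 0.0938), leaving out IVF embryo 1 (0.0523) and leaving out IVF embryo 3 (0.0664), all in limma, with differences of -2.63, -2.81 and -2.53. The authors' table also brought its difference between siXist and siCont from -2.08 to -0.95. The median of all features moved from -0.21 to 0.93 there in the same comparison. A second Rras2 probe (A_52_P558859) read 2.88, 2.00, 2.41 and 2.70 in IVF, 2.02, 1.40, 0.71 and 2.06 in siCont and 1.56, 0.76, 0.93 and 1.0 in siXist. The third (A_52_P462625) read 0.38, -0.44, 0.06 and 0.26 in IVF, -0.12, -1.53, -1.10 and -0.12 in siCont and -0.98, -1.59, -1.01 and -1.0 in siXist. Both kept the siXist clones below all IVF embryos but overlapping with siCont. Their differences from IVF were -1.44 (adjusted p = 0.151) and -1.21 (adjusted p = 0.226) in limma, and those from siCont were -0.49 and -0.43. The 3 probes thus gave 1 direction and unequal sizes, and the separation from siCont was seen with the brightest only.

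Of the receptors, Fgfr1, which both epiblast and primitive endoderm precursors carry, was a dim probe. It read -5.44, -4.69, -4.22 and -4.85 in IVF, -4.88, -5.32, -4.47 and -5.33 in siCont and -5.14, -5.79, -6.14 and -5.14 in siXist, above background on all 12 arrays. The classes overlapped throughout, and siXist minus IVF was -0.75, with an interval of -1.62 to 0.11. The other pair of Fgfr1 probes was above background in siCont clone 4 alone, of the 12 embryos, and was not tested.

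Fgfr2, the receptor that primitive endoderm precursors add to Fgfr1, has 3 probes that did not move alike. The brightest (A_52_P363110) read 3.22, 2.84, 3.54 and 2.91 in IVF, 4.17, 3.12, 1.94 and 3.56 in siCont and 3.12, 3.35, 2.53 and 1.51 in siXist. The classes overlapped, with siXist minus IVF at -0.50 (interval -1.70 to 0.69) and siCont minus IVF at 0.07 (interval -1.13 to 1.26). Another (A_52_P158800) read -1.18, -2.01, -1.66 and -1.82 in IVF, -3.29, -2.91, -7.90 and -3.67 in siCont and -3.02, -4.59, -2.78 and -8.48 in siXist. On that probe all 8 clones lay under all 4 IVF embryos, and the lowest clone of each class was not well above background. Its differences from IVF were -2.77 ± 1.38 (SE) for siCont (adjusted p = 0.412) and -3.05 ± 1.38 (SE) for siXist (adjusted p = 0.364) in limma, not past the threshold. The remaining probe (A_51_P432403) had class means of -2.01, -1.74 and -1.72 for IVF, siCont and siXist, with overlap. Whether the Fgfr2 probes detect different transcripts was not tested.

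**Figure D2:**
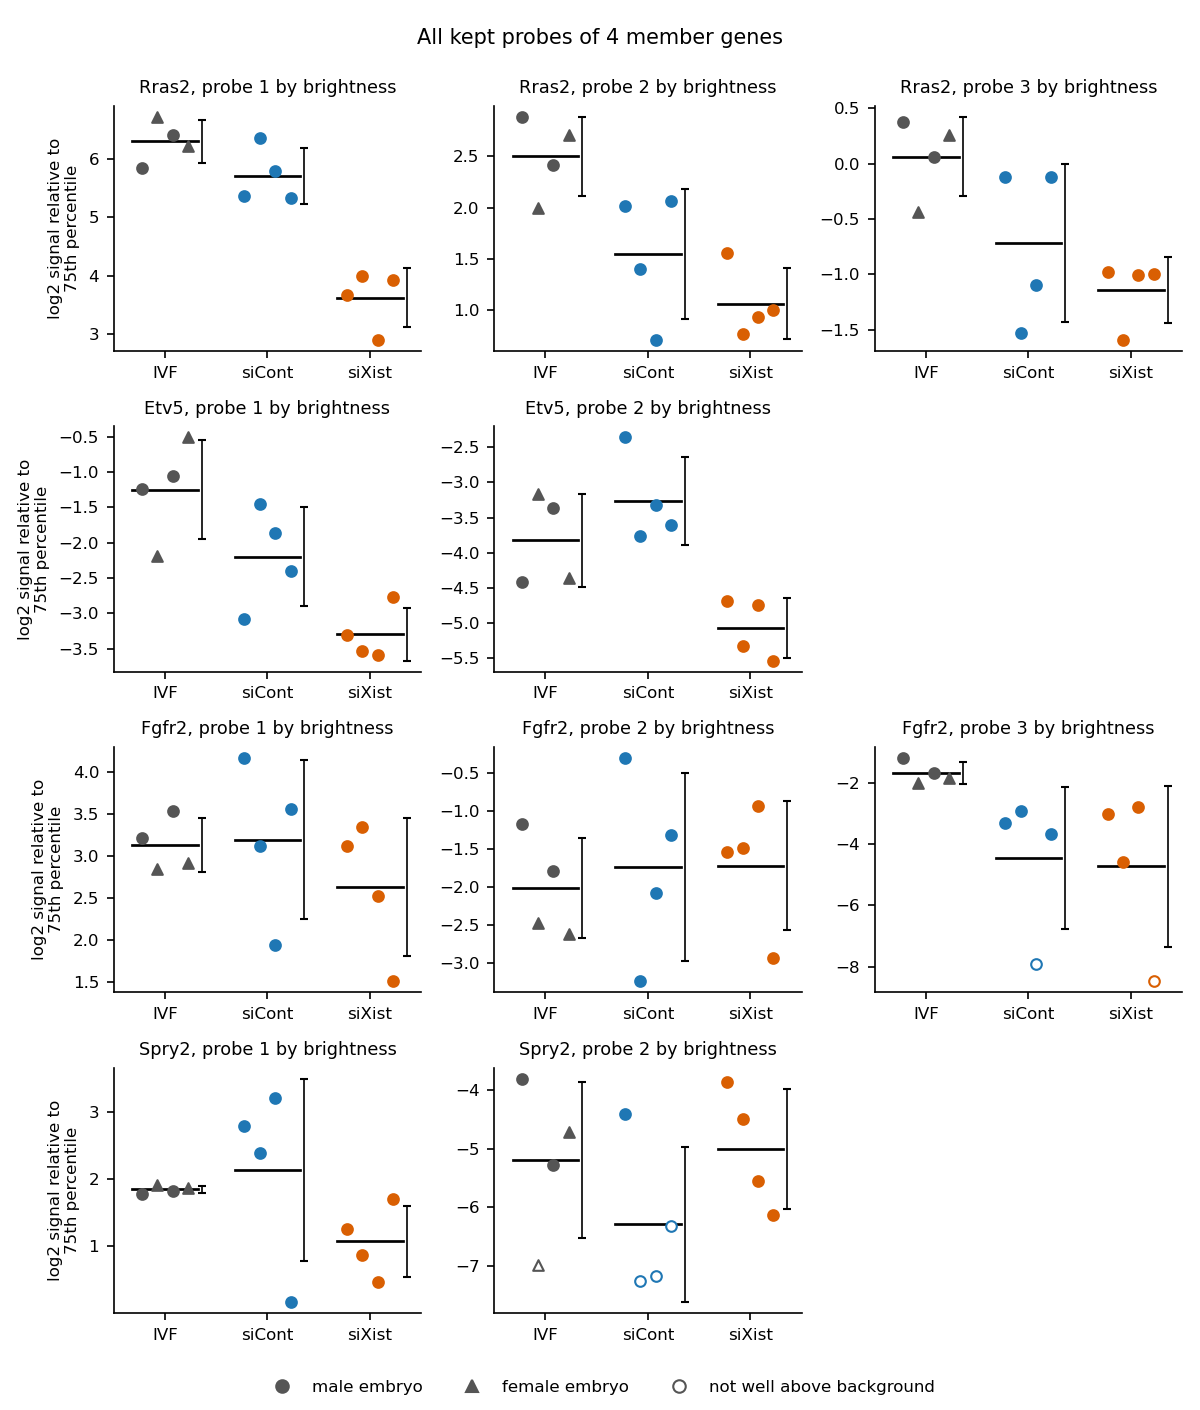
All kept probes of Rras2, Etv5, Fgfr2 and Spry2 in each embryo, ordered by brightness, as log2 signal relative to the array's 75th percentile (vertical axis, a range of its own in each panel). Symbols, bars and whiskers are embryos, means and 1 SD, with open symbols not well above background. The 3 Rras2 probes and both Etv5 probes place siXist under IVF, whereas the dimmest Fgfr2 probe separates all clones from IVF and its brightest probe does not.

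Among the inhibitors, Spry2 codes for a Sprouty protein that restrains signalling from the receptor to ERK. It read 1.78, 1.91, 1.83 and 1.88 in IVF, 2.80, 2.40, 3.21 and 0.17 in siCont and 1.25, 0.87, 0.46 and 1.70 in siXist. The IVF embryos lay close together (SD 0.057), while siCont spread widely (SD 1.36), with 3 clones above IVF and clone 4 below it. All siXist clones were under all IVF embryos, with a difference of -0.78 ± 0.61 (SE; adjusted p = 0.580 in limma) that did not pass. Against siCont the siXist difference was -1.07, with an interval of -2.43 to 0.28. A dimmer Spry2 probe (A_51_P445153), above background on 1 of 4 siCont arrays, gave the opposite sign in both of these comparisons, at 0.19 and 1.28.

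Spry4, a second Sprouty gene, read -2.12, 0.53, -0.97 and -1.64 in IVF, -1.42, -8.47, -0.26 and -5.28 in siCont and -3.56, -3.76, -9.04 and -1.18 in siXist. The signal was not well above background in siCont clone 2 and siXist clone 3. The SD was 3.75 in siCont, 3.32 in siXist and 1.15 in IVF. Neither the difference of siCont from IVF, -2.81 (interval -7.24 to 1.63), nor that of siXist, -3.33 (interval -7.76 to 1.1), passed the test.

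Dusp6 codes for a cytoplasmic phosphatase that acts on ERK and is transcribed on ERK activity. It read 2.10, 4.97, 4.52 and 2.30 in IVF, 2.03, 5.64, 6.05 and 3.61 in siCont and 0.99, 0.22, -7.90 and 2.55 in siXist. Clone 3 of siXist was not well above background, and the other 3 siXist clones included 1 that lay among the other classes. The mean differences of siXist were -4.51 ± 2.04 (SE) from IVF (adjusted p = 0.365) and -5.37 ± 2.04 (SE) from siCont (adjusted p = 0.318) in limma, neither past the threshold. Without siXist clone 3 these differences were -2.22 and -3.08, with adjusted p values of 0.569 and 0.464 in limma. The genes whose levels followed Dusp6 most closely over the 12 arrays, of 9505 above background on all of them, were Atm (Pearson r = 0.948), A530032D15Rik (0.939) and Epn2 (0.938). The arrays share class and slide, and without siXist clone 3 and siCont clone 3 these values were 0.730, 0.719 and 0.760.

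Dusp4 codes for a nuclear phosphatase of ERK and was the 1 member with a higher mean in siXist than in both other classes. It read 1.31, 1.42, 3.85 and 1.32 in IVF, 3.52, 0.28, 2.94 and 3.24 in siCont and 4.11, 3.27, 4.36 and 0.24 in siXist. Within each class 3 embryos lay together and 1 apart, high in IVF and low in both clone classes. The difference of siXist from IVF was 1.02, with an interval of -1.30 to 3.34 and an adjusted p of 0.676 in limma.

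The ETS factors Etv4 and Etv5 belong to the PEA3 group and act downstream of FGF receptors. Etv5 read -1.24, -2.20, -1.06 and -0.51 in IVF, -3.08, -1.46, -1.87 and -2.40 in siCont and -3.31, -3.53, -3.59 and -2.77 in siXist. The siXist clones were below all IVF embryos but 1 of them overlapped with siCont, which lay between the classes in its mean. The difference of siXist from IVF was -2.05 ± 0.47 (SE), a 4.13-fold lower level with an adjusted p of 0.0983 in limma. It was -1.10 from siCont (adjusted p = 0.343 in limma), and siCont minus IVF was -0.95 (interval -1.99 to 0.09). When the kept probes of a gene were averaged, Etv5 passed the threshold against IVF at -1.65 (adjusted p = 0.0296 in limma).

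The second Etv5 probe (A_52_P631015) read -4.42, -3.16, -3.36 and -4.36 in IVF, -2.36, -3.76, -3.33 and -3.61 in siCont and -4.69, -5.32, -4.74 and -5.53 in siXist. Here all siXist clones lay under all embryos of both other classes. The differences were -1.24 ± 0.45 (SE) from IVF (adjusted p = 0.260) and -1.81 ± 0.45 (SE) from siCont (adjusted p = 0.263) in limma. For siCont against IVF the probes had opposite signs, 0.56 on this one, so the place of siCont relative to IVF was not settled by Etv5.

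Etv4 read -4.67, -4.97, -3.45 and -3.27 in IVF, -4.50, -4.80, -3.60 and -5.24 in siCont and -5.64, -6.23, -6.41 and -5.43 in siXist. It was dim, and siXist clone 2 was not well above background. All siXist clones lay under all embryos of the other classes. The difference was -1.84 ± 0.51 (SE) from IVF (adjusted p = 0.167) and -1.40 ± 0.51 (SE) from siCont (adjusted p = 0.313) in limma. After normexp background correction and quantile normalisation the difference from IVF was -0.51 and that from siCont -0.40, and in the authors' table the latter was -0.26. For siXist minus siCont the median of all features was -0.21 in the main setting and 0.93 in the authors' table.

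Counted together, 8 of 9 members had a lower mean in siXist than in IVF, Dusp4 being the exception, and 61.7% of all features did too. The median difference of the 9 members was -1.84 and that of all features -0.23. In 4 of 9 members (Rras2, Etv4, Etv5 and Spry2) the siXist clones lay under the IVF embryos without overlap, as in 9.58% of all features. An unadjusted p under 0.05 in the lower direction was reached by 3 of 9, as by 8.84% of all features. The members were chosen with earlier results of these data known, so the counts here and below cannot show an excess over all features.

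For siXist against siCont, 8 of 9 members had a lower mean (median -1.07, all features -0.21), but in the authors' table Fgfr1, Fgfr2, Spry2, Spry4 and Etv5 had the opposite sign. That table moves the median of all features to 0.93 in this comparison, and all 5 lay below that median there. No overlap was seen in 2 of 9 (Rras2 and Etv4), and 6.41% of all features were lower without overlap. An unadjusted p under 0.05 was reached by 4 of 9, all lower, as by 9.50% of all features. With limma's adjustment 0 of 9 passed.

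In siCont against IVF, 5 of the 9 members had a lower and 4 a higher mean, with a median of -0.20 against -0.04 for all features. Fgfr1 changed sign with quantile normalisation and Fgfr2, Spry2, Dusp4 and Dusp6 in the authors' table. Limma called 0 of 9, with 0 at an unadjusted p under 0.05, where 13.6% of all features lay, and 0 without overlap, where 4.79% of all features were lower and 5.53% higher without overlap. The intervals were widest for Spry4 (-7.24 to 1.63) and Dusp6 (-3.69 to 5.41), and those of Fgfr1 (-1.06 to 0.67) and Rras2 (-1.42 to 0.24) were much narrower.

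**Figure D3:**
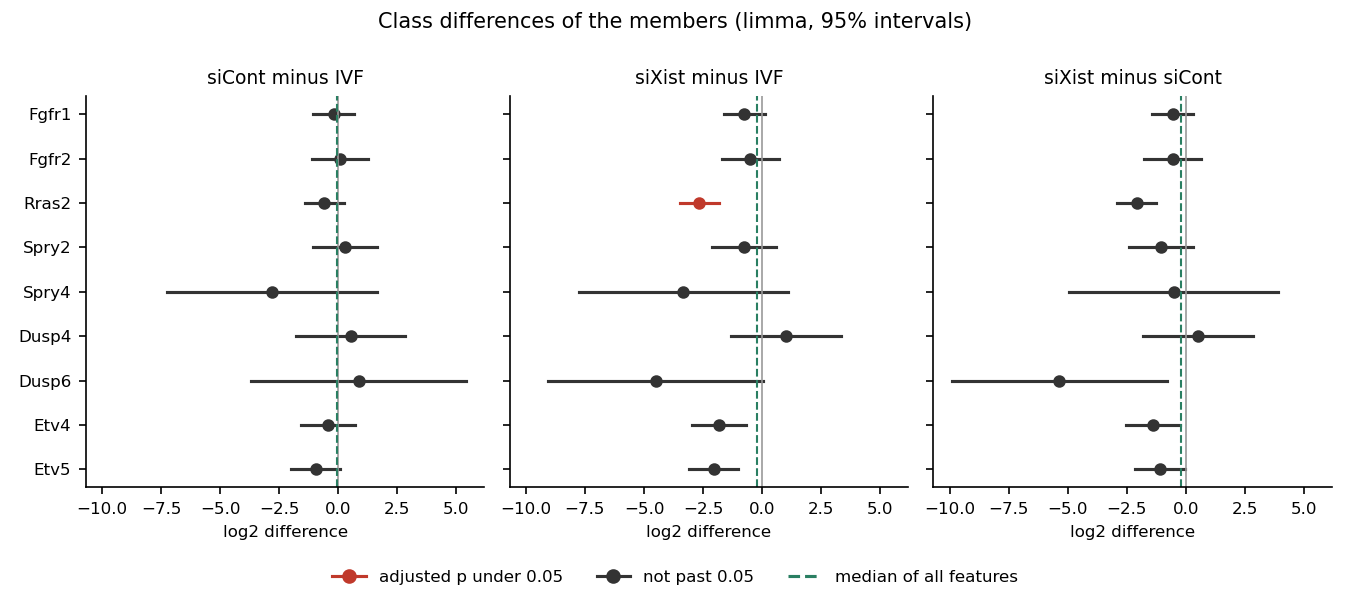
Differences between class means of 9 members in log2 units (horizontal axis), with 95% intervals from limma, for 3 comparisons. The red point passed an adjusted p of 0.05 and the dashed line is the median of all features. In siXist minus IVF 8 of 9 points lie below 0 and Rras2 alone passed; the intervals of Spry4 and Dusp6 are the widest.

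Between the 2 female and 2 male IVF embryos, limma called 0 of 9, where 0.0158% of all features passed, and 0 reached an unadjusted p under 0.05, where 1.53% of all features did. Without overlap, Fgfr2 was lower in the females (-0.50) and Spry2 higher (0.09), where 11.7% of all features were lower and 16.9% higher without overlap. The adjusted p was 0.9998 for each of the 9.

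The spread between embryos of 1 class was larger for the median member than for the median feature in IVF and siCont, and smaller in siXist. The median SD over the 9 members was 0.70 in IVF, 0.94 in siCont and 0.53 in siXist, and that over all features was 0.52, 0.78 and 0.72. In siXist the SD was 4.68 for Dusp6, 3.32 for Spry4, 1.90 for Dusp4 and 0.82 for Fgfr2, above the median feature. It was 0.37 to 0.53 for Etv5, Etv4, Fgfr1, Rras2 and Spry2, below the median feature. Clone 3 of siXist was the lowest of its class for 7 of 9 members (Fgfr1, Rras2, Spry2, Spry4, Dusp6, Etv4 and Etv5) and for 46.1% of all features. It also had the highest 75th percentile signal, 1133, and the highest share of probes above background, 61.4%. Without it Rras2 still passed against IVF (-2.43, adjusted p = 0.0433 in limma), and 34 features did in place of 110. IVF embryo 1 was the lowest of its class for 6 of 9 members and for 19.5% of all features.

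The rest of the pathway was taken from 8 lists by role, 108 genes other than the members, of which 103 had a named probe and 80 were tested. Limma called 0 of 80 in each comparison. At an unadjusted p under 0.05, 7 were higher and 6 lower in siCont than in IVF, where 6.84% of all features were higher and 6.73% lower. In siXist against IVF 5 were higher and 10 lower (5.05% and 8.84% of all features), in siXist against siCont 2 were higher and 9 lower (4.39% and 9.50%), and between the sexes 0 differed. The smallest adjusted p values in the first 2 of these were 0.125 and 0.140. The counts against IVF include genes that passed the filter only through the class where they were high. Among these were Sox2 (lower in siCont and siXist), Sox17 (lower in siXist) and Fgf10 (higher in siXist). The counts are therefore no support for a change of the pathway. The genes named below had the smallest p in their list in siXist against siCont or in siCont against IVF, and none passed the threshold.

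Of 17 ligand genes 6 were tested. Fgf1, which can bind every FGF receptor, had means of -0.38 ± 0.58 in IVF, -0.46 ± 1.38 in siCont and -6.56 ± 3.80 in siXist (SD, n = 4 each). It was above background in all IVF and siCont embryos and in 1 of 4 siXist clones, and siXist minus siCont was -6.09 ± 1.60 (SE; adjusted p = 0.269 in limma). Fgf23, a hormone-like ligand, was lower by 1.22 in siXist than in siCont (adjusted p = 0.278 in limma) and was above background in 2 of 4 siXist clones. Fgf8 was higher by 1.17 in siCont than in IVF (adjusted p = 0.411 in limma).

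Among 15 receptor and co-receptor genes, 11 were tested. The receptor genes Fgfr3 and Fgfr4 were higher in siCont than in IVF, by 1.38 and 1.45, and lower in siXist than in siCont, with differences of -1.99 and -1.69. Their siXist means stood -0.61 and -0.24 from IVF. The adjusted p values of siXist against siCont were 0.297 and 0.342 in limma. Klb, the co-receptor beta-Klotho, differed between siCont and IVF by -2.24 (adjusted p = 0.267 in limma) and the proteoglycan gene Gpc4 by 2.67 (adjusted p = 0.326 in limma).

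Of 10 adaptor and exchange factor genes 9 were tested. Frs2, the docking protein of FGF receptors, had a siXist mean of 3.08 over the 2 clones with a usable spot and a siCont mean of 4.21, a difference of -1.13 (adjusted p = 0.406 in limma). Sos2, an activator of Ras, was 0.71 higher in siCont than in IVF and -0.61 from siCont in siXist. Frs3 differed by 0.74 between siCont and IVF.

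All 7 other Ras family genes were tested, and the siXist median was -0.15 from IVF and 0.03 from siCont. Rap1a, with the smallest p of these in siXist against siCont, differed by -0.62 (adjusted p = 0.471 in limma), and Mras by 0.51. Rras, the nearest relative of Rras2 on the list, had means of -0.63 ± 0.34 in IVF, 0.08 ± 1.37 in siCont and 0.35 ± 0.36 in siXist (SD, n = 4 each). Its siXist mean was 0.98 above IVF (adjusted p = 0.492 in limma), the other direction from Rras2. Hras, with a usable spot in 3 of 4 siXist clones, differed by 0.24 between siCont and IVF.

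In the kinase cascade 12 of 14 genes were tested. Lamtor3, a scaffold of MEK and ERK, differed by -0.89 between siXist and siCont (adjusted p = 0.314 in limma). Of the ERK-activated kinase genes, Rps6ka3 was 2.07 ± 0.50 (SE) higher in siCont than in IVF (adjusted p = 0.125 in limma) and Rps6ka1 differed by -1.34 (adjusted p = 0.210 in limma).

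Of 19 inhibitor genes 14 were tested. Dusp3, a phosphatase of ERK and JNK, was at -4.74 ± 2.69 in siCont and -1.08 ± 0.79 in siXist (SD, n = 4 each), 3.66 apart (adjusted p = 0.297 in limma), with 3 of 4 siCont clones above background. Rasa2, an inactivator of Ras, differed by 1.23 in the same comparison. Rasa1 was at -1.53 in siCont relative to IVF, and Il17rd, the membrane inhibitor Sef, at 2.33.

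Of the transcription factor and immediate early genes 15 of 19 were tested. Fos and Ier3, which growth factors induce within minutes, were higher in siCont than in IVF by 3.18 ± 0.85 (SE; adjusted p = 0.162) and 4.01 ± 1.20 (SE; adjusted p = 0.209) in limma. In siXist they were 2.00 and 4.22 above IVF. Ets1 differed by -1.14 between siXist and siCont. Myc differed by -1.48 between siXist and siCont, and by -2.30 between siXist and IVF (adjusted p = 0.232 in limma).

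Of 7 lineage genes that the pathway acts on in the embryo 6 were tested. Sox2 and Sox17, named here after their values were seen, passed the filter through IVF (4 and 3 of 4 arrays above background) and were above background in 1 of 4 clones of each clone class. No separate median or count of this list is therefore given in the text. Pdgfra, a receptor gene marking primitive endoderm, had means of 1.95 ± 1.32 in IVF, 0.15 ± 1.72 in siCont and -4.68 ± 4.68 in siXist (SD, n = 4 each), and was above background in 2 of 4 siXist clones. Gata6, the primitive endoderm regulator, was at 7.07 ± 0.14 in IVF, 6.15 ± 0.46 in siCont and 6.38 ± 0.35 in siXist (SD, n = 4 each), -0.92 in siCont from IVF (adjusted p = 0.265 in limma). Gata4 differed by -0.69 between siXist and siCont. Cdx2, the trophectoderm regulator, read 4.72 ± 0.36 in IVF, -1.05 ± 5.42 in siCont and 2.85 ± 1.06 in siXist (SD, n = 4 each), with 1 siCont clone not above background.

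**Figure D4:**
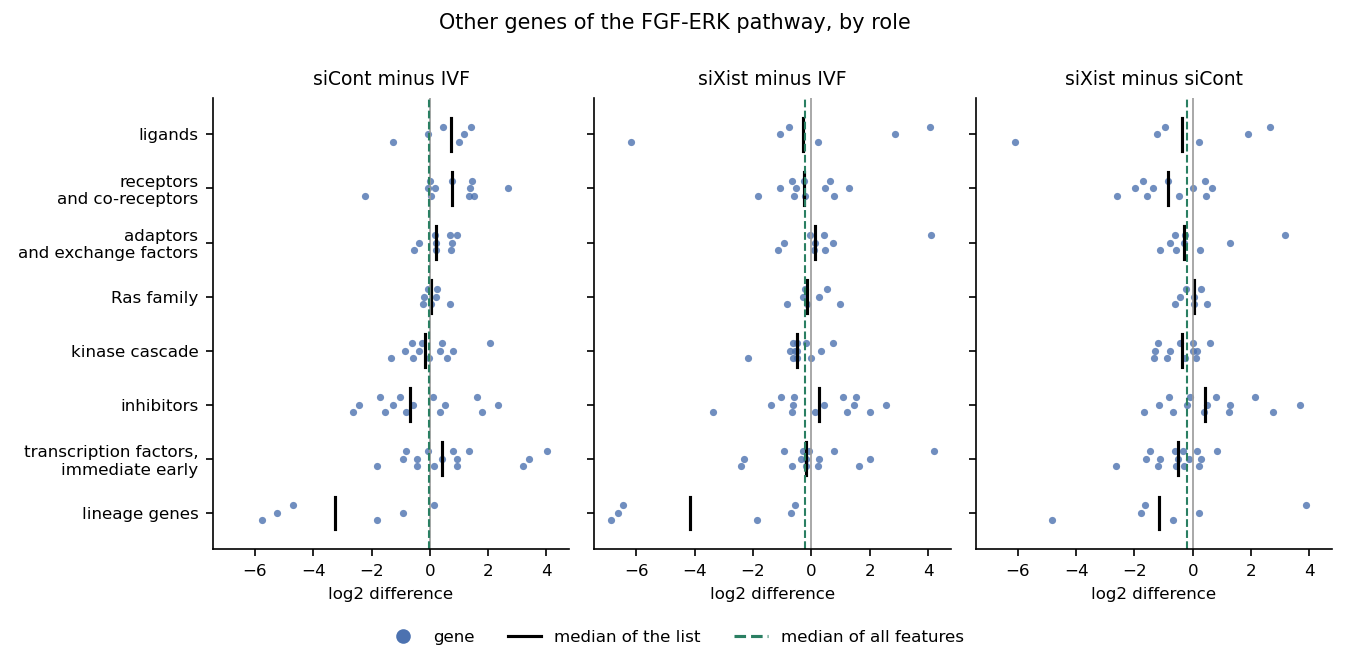
Differences between class means in log2 units (horizontal axis) of the 80 other pathway genes tested, by role, for 3 comparisons. Points are genes, black bars the list medians and the dashed line the median of all features. No gene passed an adjusted p of 0.05, and the low points of the lineage list include Sox2 and Sox17, which were above background in 1 of 4 clones of each clone class.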

How the data were processed

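RNA of 12 single morulae was amplified linearly in a pair of rounds and labelled with Cy3, per the labels' protocols. The deposited scanner files hold processed signal intensity from Agilent Feature Extraction 10.5.1.1 with a grid on mm9, per the file headers, not normalised between arrays. The authors' deposited value table is in log2. Set against the scanner values, each of its columns was the log2 signal shifted by 1 amount for the whole array and centred on each probe's median. What the shift rests on is unknown. Its column medians ranged from -1.62 to 0.75.

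Here log2 processed signal minus the array's 75th percentile was used. Outlier spots were dropped and 0 were saturated. Accessions named 26885 of 41174 probes (65.3%) through a RefSeq table. A probe well above background on at least 3 of 4 arrays of a class was kept (24840). The brightest kept probe stood for a gene, and 7 features with no value in some group were left out. Missing spots (1011 values) were not imputed. Limma 3.58.1 (R 4.3.3) fitted all 12 arrays with a mean per class and sex (8 residual degrees of freedom), IVF weighting the sexes equally, two-sided, with Benjamini-Hochberg adjustment over 19038 features at 0.05. It was tested on simulated data. The series text calls the 4 siRNA embryos per class biological replicates.

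The members and the gene lists were chosen with earlier results of these data known. The text names all members, and of each pathway list any gene called, or else the 2 with the smallest p in siXist minus siCont and the 2 in siCont minus IVF. A gene that this rule names is not reported here. It also names the 3 genes most correlated with Dusp6; the same was planned for Fgf4, which was not analysed here. Alternatives were another background correction, normalisation, filter, floor (at -5.60), probe rule, array weights, fit, sex term, replicate block and leaving out each array.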

Additional observations from a re-analysis of the deposited data

Results flagged for a closer look

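Of the values of member probes, 6 stood out. In 45 groups of 4 embryos, 1 per class and kept probe, the gap of the extreme embryo to its neighbour exceeded Dixon's 95% critical value in 3, and chance flags about 1 in 20 such groups. Dusp4 read 3.85 in IVF embryo 3, and the other IVF embryos 1.31 to 1.42. The third Rras2 probe (A_52_P462625) read -1.59 in siXist clone 2, and the others of that class -1.01 to -0.98. An Fgfr2 probe (A_52_P158800) read -7.90 in siCont clone 3, where it was not well above background, and the others -3.67 to -2.91.

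The other 3 are signals on probes that failed the filter and enter no comparison. Of the Fgfr1 probes, A_52_P552062 read -2.41 and A_52_P136162 read -3.92 in siCont clone 4, the 1 embryo in which they were above background. The other embryos read at most -5.57 and -6.48. The dim Spry4 probe (A_51_P250422) was above background at -6.16 in siXist clone 4, within the range of -8.79 to -5.85 of the embryos where it was not.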

How the results depend on the processing

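The count of members past the threshold was 0 under every alternative run for siCont minus IVF, siXist minus siCont and female minus male IVF. For siXist minus IVF it was 1 (Rras2), and it was 0 in the authors' table, 2 with the mean of the kept probes (Rras2 and Etv5), 0 with a replicate block, and 0 to 1 when 1 embryo was left out, 0 without IVF embryo 1 and 0 without IVF embryo 3. The adjusted p of Rras2 there ranged from 0.00968 to 0.226 in limma, 0.0801 with the replicate block. Same-numbered embryos of different classes did not deviate together (12 pairs, correlations from -0.153 to 0.064, 0 over 0.1), so no pairing by number was seen. Such correlations cannot decide whether these embryos shared a day or litter. The causes were not tested.

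Differences that changed sign, none past the threshold before or after, follow in log2 units. For siCont minus IVF they were, in the authors' table, -1.03 for Fgfr2, -0.80 for Spry2, -0.58 for Dusp4 and -0.24 for Dusp6; with normexp and quantile normalisation 0.067 and with quantile normalisation alone 0.010 for Fgfr1; with the mean of probes -0.81 for Fgfr2 and -0.40 for Spry2. Other probes gave -1.09 for Spry2, 0.56 for Etv5 and -2.77 for Fgfr2. Leaving out 1 embryo gave ranges of -0.26 to 0.49 for Fgfr2 (negative without IVF 1, siCont 1 or siCont 4), -0.12 to 1.26 for Dusp4 (IVF 1), -0.50 to 0.10 for Fgfr1 (IVF 3) and -0.061 to 0.95 for Spry2 (siCont 3).

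For siXist minus IVF only other probes did so, at 0.29 for Fgfr2 and 0.19 for Spry2. For siXist minus siCont the authors' table gave 0.58 for Fgfr1, 0.57 for Fgfr2, 0.060 for Spry2, 0.61 for Spry4 and 0.034 for Etv5, the mean of probes 0.10 for Spry2 and array weights 0.97 for Spry4. Other probes gave 0.013 for Fgfr2 and 1.28 for Spry2. Leaving out 1 embryo gave -2.07 to 1.02 for Spry4 (positive without siCont 1, siCont 3 or siXist 3) and -0.24 to 1.42 for Dusp4 (negative without siCont 2).

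For female minus male IVF, normexp gave -0.0068 for Fgfr1, -0.039 for Spry2 and 0.012 for Etv4, and the authors' table -0.64 for Fgfr1, -0.35 for Rras2, -0.61 for Spry2 and -0.38 for Dusp6. The mean of probes gave -0.084 for Rras2 and -0.61 for Spry2, and the replicate block -0.12 for Rras2, 0.77 for Dusp4, -2.39 for Dusp6 and 0.34 for Etv4. Other probes gave -0.30 and -0.31 for Rras2, -1.30 for Spry2 and 0.13 for Etv5. Leaving out an IVF embryo gave -0.55 to 0.67 for Fgfr1, -0.098 to 2.07 for Spry4, -2.48 to 0.061 for Dusp4, -1.01 to 1.65 for Dusp6, -0.90 to 0.80 for Etv4 and -1.04 to 0.64 for Etv5.

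Over the whole table limma called 79 features for siCont minus IVF, 45 with a filter of at least 6 arrays, 12 with the replicate block and 33 to 106 without 1 embryo. For siXist minus IVF it called 110, 42 in the authors' table, 51 with that filter, 232 with array weights, 13 with the block and 34 to 127 without 1 embryo. For siXist minus siCont it called 2, 0 with normexp, 4 with quantile normalisation, 19 in the authors' table, 4 with a floor, 5 without the sex term, 0 with the block, 12 with the compared classes alone and 8 to 56 without 1 embryo. For female minus male IVF it called 3, 5 with normexp, 23 without a filter, 6 with a floor, 8 with array weights, 0 with the IVF arrays alone and 3 to 7 without 1 embryo. The authors' table moves the median of all features from -0.04 to -1.13 for siCont minus IVF, from -0.21 to 0.93 for siXist minus siCont and from 0.03 to -0.67 for female minus male IVF.

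Dim signals limit Etv4, Spry4, Fgfr1, the third Fgfr2 probe and the second Spry2 probe, of which all but Fgfr1 had embryos at background. The second Spry2 probe was above background on 8 of 12 arrays. Dusp6 was at background in siXist clone 3 only.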
